A study of Mus musculus with 18 samples.

Results

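The Hox genes described here are the members of the 4 mouse Hox clusters whose symbol reads Hoxa, Hoxb, Hoxc or Hoxd followed by a number, and that appear in both deposited expression tables. They were 37 of the 17759 gene symbols that the tables share: 11 of the Hoxa cluster, 10 of Hoxb, 8 of Hoxc and 8 of Hoxd. Hoxa10 and Hoxb3 were each listed as more than 1 transcript, and the transcript with the highest mean over the knockout and wild-type columns was kept in each table. Hoxc11 and Hoxd3 were not analysed here.

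The study compared cells with and without TRIM28 (also called KAP1), a corepressor recruited by zinc finger proteins that brings in the enzyme setting trimethylation of histone H3 lysine 9 (H3K9me3). RNA was sequenced from ES3 cells, a C57BL/6 mouse embryonic stem cell culture, as wild type after 4 days in culture and as knockout 4 days after a Cre recombinase induced by 4-OHT (4-hydroxytamoxifen). Mouse embryonic fibroblasts (MEFs) of the same strain were taken as wild type at 5 days and as knockout 5 days after induction. The same ES3 conditions were used for chromatin immunoprecipitation of H3K9me3 and of TRIM28, and the labels say that the mark is lowered but still present at the time the knockout was sampled. The labels do not say whether wild-type cells received 4-OHT, which allele Cre recombines or what drives it, so drug and knockout cannot be told apart. Each group was 1 RNA library made from pooled duplicates, so no difference below has a replicate check, an error or a test.

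Hox genes encode homeodomain transcription factors that give cells their position along the head-to-tail axis and along the limb. Within a cluster the genes lie in the order of their paralog number, with low-numbered (anterior) genes active earlier and nearer the head than high-numbered (posterior) genes. In embryonic stem cells the clusters are held silent by Polycomb complexes, their promoters are rich in CpG, and retinoic acid and Cdx factors open them during differentiation. Fibroblasts keep a Hox pattern that reflects where in the body they came from.

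The start regions of 4 members show the range of these promoters, as RefSeq gives them on GRCm38.p6, each with 250 bases before the start and 50 from the start on. Hoxd13 is shown as a CpG-rich start that was at 1 RPKM or more in knockout ES3 cells, Hoxb8 as one of the highest genes in MEFs, and Hoxd4 as the CpG-poor end. Capitals mark CpG in these 3 sequences.
Hoxd13, chr2:74667975-74668274, plus strand: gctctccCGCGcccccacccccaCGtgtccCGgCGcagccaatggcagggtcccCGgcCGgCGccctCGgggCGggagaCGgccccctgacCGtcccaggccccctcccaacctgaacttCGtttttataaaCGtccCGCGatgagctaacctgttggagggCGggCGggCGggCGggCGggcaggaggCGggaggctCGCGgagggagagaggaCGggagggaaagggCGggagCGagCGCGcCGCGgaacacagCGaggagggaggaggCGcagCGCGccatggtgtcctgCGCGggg
Hoxb8, chr11:96281655-96281954, plus strand: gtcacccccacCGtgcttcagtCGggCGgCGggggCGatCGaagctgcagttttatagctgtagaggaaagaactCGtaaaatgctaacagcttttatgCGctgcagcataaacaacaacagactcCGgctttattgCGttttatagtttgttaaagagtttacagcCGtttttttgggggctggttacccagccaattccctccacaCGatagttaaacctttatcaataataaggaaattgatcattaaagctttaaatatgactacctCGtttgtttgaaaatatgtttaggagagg
Hoxd4, chr2:74721728-74722027, plus strand: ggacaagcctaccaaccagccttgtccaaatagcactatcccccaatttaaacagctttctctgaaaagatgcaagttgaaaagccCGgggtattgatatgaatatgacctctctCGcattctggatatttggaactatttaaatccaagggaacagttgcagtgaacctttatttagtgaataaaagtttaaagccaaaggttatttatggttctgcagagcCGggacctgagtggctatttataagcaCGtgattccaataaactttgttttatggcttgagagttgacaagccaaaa
Hoxb1 is shown because an H3K9me3 region of the knockout lay next to its start, and because its window holds the 8-base pattern TGATNNAT to which Pbx and Hox proteins can bind together. Capitals mark that pattern here.
Hoxb1, chr11:96365508-96365807, plus strand: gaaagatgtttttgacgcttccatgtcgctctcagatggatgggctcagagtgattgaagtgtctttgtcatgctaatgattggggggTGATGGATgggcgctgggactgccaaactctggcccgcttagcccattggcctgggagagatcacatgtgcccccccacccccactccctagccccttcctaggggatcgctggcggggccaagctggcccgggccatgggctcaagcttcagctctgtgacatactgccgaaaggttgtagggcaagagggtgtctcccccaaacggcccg
These windows hold 37 CpG in Hoxd13, 13 in Hoxb8, 4 in Hoxd4 and 10 in Hoxb1. RefSeq windows were matched by symbol for 21 of the 37 members, 23 windows in all. Of Hoxb only Hoxb1, Hoxb4 and Hoxb8 had a window, and of Hoxc only Hoxc4. The values below thus mostly describe Hoxa and Hoxd. The median of the 23 windows was 14 CpG, with a range of 4 to 45, beside a median of 7 over all 32851 windows of the table. The G and C content had a median of 58% in the members' windows and 52.7% in all windows. TGATNNAT, searched on both strands, was in 4 of the 23 windows (17.4%) and in 8.85% of all windows. TATAAA, also searched on both strands, was in 4 member windows (17.4%) and in 13.6% of all. These matches describe letters in short windows and carry no statement on binding.

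Expression was deposited as RPKM (reads scaled by transcript length and library size), and the ES3 and MEF tables were normalized separately, so levels across them are set side by side without a test. The Trim28 transcript was at 1051 RPKM in wild-type ES3 cells and 37.2 RPKM in the knockout, and at 62.8 RPKM in wild-type MEFs and 5.84 RPKM in the knockout. The knockout level was thus 3.54% of the wild type in ES3 cells and 9.29% in MEFs. Of 10 fibroblast markers, 10 were at 1 RPKM or more in wild-type MEFs. In wild-type ES3 cells 4 of the same markers were, Fn1, Vim, Thy1 and Twist1. Of 4 leukocyte markers 3 were at that level in wild-type MEFs and 2 in wild-type ES3 cells. Of 8 embryonic stem cell markers, 8 were at 1 RPKM or more in wild-type ES3 cells, and in wild-type MEFs 1 was (Klf4) and 3 were listed at 0.

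The clusters were silent or nearly so in wild-type ES3 cells. None of the 37 members reached 1 RPKM, the level called expressed here, while 60.7% of all genes did. Of the members, 12 were listed at 0, 34 were under 0.5 RPKM, and the median was 0.0410 RPKM. Among those above 0.5 RPKM were the posterior genes Hoxc13 at 0.760 RPKM and Hoxb13 at 0.528 RPKM. The summed level of all members was 4.58 RPKM, beside a median of 9.13 RPKM for a single gene that was expressed in that library.

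In wild-type MEFs 28 of the 37 members were at 1 RPKM or more (75.7%, against 59.6% of all genes), 14 were at 5 or more and 7 at 10 or more. Their summed level was 236 RPKM and their median 3.22 RPKM. The Hoxb cluster held 41.4% of that sum (97.7 RPKM) and Hoxc 40.8% (96.3 RPKM), while Hoxa held 10.6% (25.1 RPKM) and Hoxd 7.23% (17.1 RPKM). By position, the central genes (paralogs 4 to 8) held 60.4% of the sum, and 15 of 15 of them were at 1 RPKM or more. The posterior genes (9 to 13) held 29.3% with 9 of 15 at that level, and the anterior genes (1 to 3) 10.2% with 4 of 7.

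**Figure D1:**
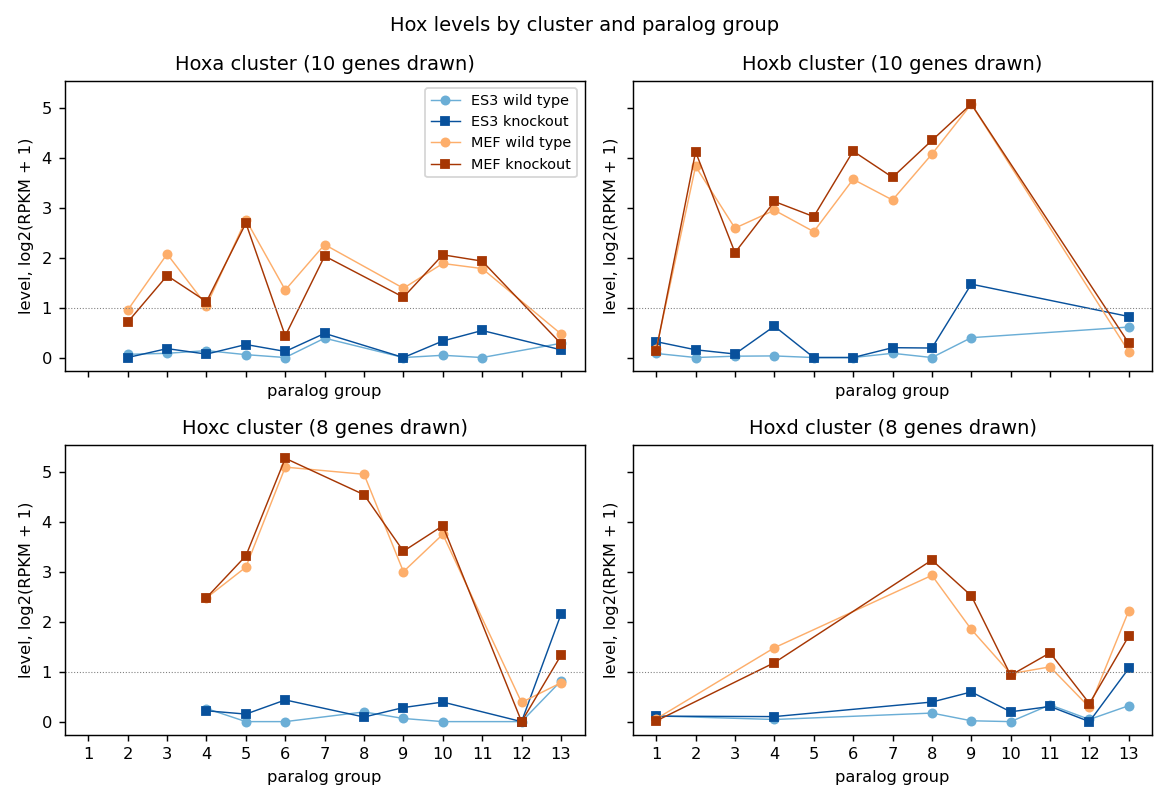
Levels of the Hox genes, log2(RPKM + 1), by cluster and paralog group in the 4 libraries, with 1 member not drawn; 1 point is 1 gene in 1 library, lines join neighbouring listed paralogs, and the dotted line marks 1 RPKM. The ES3 wild-type points all lie under the dotted line, and the highest MEF points are Hoxc6, Hoxb9 and Hoxc8.

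Among anterior genes, Hoxa3, needed for the thymus and parathyroid, was at 0.0606 RPKM in wild-type ES3 cells and 0.132 RPKM in the knockout, and at 3.22 RPKM in wild-type MEFs and 2.12 RPKM in the knockout. Hoxb2, a hindbrain gene, was at 0 RPKM in wild-type ES3 cells and 0.114 RPKM in the knockout, and at 13.3 RPKM in wild-type MEFs and 16.4 RPKM in the knockout. It was the highest anterior gene in MEFs. Hoxb3, a hindbrain and pharyngeal gene, was at 0.0189 RPKM in wild-type ES3 cells and 0.0504 RPKM in the knockout, and at 5.04 RPKM in wild-type MEFs and 3.30 RPKM in the knockout.

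Among central genes of Hoxa, Hoxa4 was at 0.101 RPKM in wild-type ES3 cells and 0.0488 RPKM in the knockout, and at 1.06 RPKM in wild-type MEFs and 1.18 RPKM in the knockout. Hoxa5, needed for the lung and trachea, was at 0.0410 RPKM in wild-type ES3 cells and 0.198 RPKM in the knockout, and at 5.79 RPKM in wild-type MEFs and 5.48 RPKM in the knockout. It was the highest Hoxa gene in wild-type MEFs. Hoxa6 was at 0 RPKM in wild-type ES3 cells and 0.0884 RPKM in the knockout, and at 1.56 RPKM in wild-type MEFs and 0.352 RPKM in the knockout. Hoxa7 was at 0.309 RPKM in wild-type ES3 cells and 0.399 RPKM in the knockout, and at 3.81 RPKM in wild-type MEFs and 3.10 RPKM in the knockout. The deposited span of Hoxa3 covers Hoxa4, Hoxa5 and Hoxa6, and the sources used here do not give how reads were shared among them.

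The central Hoxb genes mostly had higher MEF levels than those of Hoxa. Hoxb4, known for expanding blood stem cells, was at 0.0225 RPKM in wild-type ES3 cells and 0.547 RPKM in the knockout, and at 6.75 RPKM in wild-type MEFs and 7.75 RPKM in the knockout. Hoxb5 was listed at 0 in both ES3 libraries, and stood at 4.76 RPKM in wild-type MEFs and 6.09 RPKM in the knockout. Hoxb6, also listed at 0 in both ES3 libraries, stood at 10.9 RPKM in wild-type MEFs and 16.6 RPKM in the knockout. Hoxb5 and Hoxb6 thus had no value above 0 in ES3 cells of either genotype. Hoxb7 was at 0.0607 RPKM in wild-type ES3 cells and 0.147 RPKM in the knockout, and at 7.93 RPKM in wild-type MEFs and 11.2 RPKM in the knockout. Hoxb8, which can hold blood progenitors in a dividing state, was at 0 RPKM in wild-type ES3 cells and 0.141 RPKM in the knockout, and at 15.9 RPKM in wild-type MEFs and 19.5 RPKM in the knockout. The spans of Hoxb7 and Hoxb8 overlap.

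Hoxc6 was the highest Hox gene in both MEF libraries, at 33.4 RPKM in wild-type MEFs and 37.9 RPKM in the knockout. In ES3 cells Hoxc6 was at 0 and 0.352 RPKM in wild type and knockout. Hoxc8, which specifies brachial motor neurons, was at 0.144 RPKM in wild-type ES3 cells and 0.0660 RPKM in the knockout, and at 30.1 RPKM in wild-type MEFs and 22.4 RPKM in the knockout. Among members at 10 RPKM or more in wild-type MEFs it had the lowest ratio of knockout to wild type. Hoxc4 was at 0.200 RPKM in wild-type ES3 cells and 0.163 RPKM in the knockout, and at 4.58 RPKM in wild-type MEFs and 4.61 RPKM in the knockout. Hoxc5 was at 0 RPKM in wild-type ES3 cells and 0.110 RPKM in the knockout, and at 7.56 RPKM in wild-type MEFs and 9.02 RPKM in the knockout. Both Hoxc genes at the anterior end of their cluster were thus lower in MEFs than Hoxc6 and Hoxc8. Hoxd4, a retinoic acid responsive hindbrain gene, was at 0.0301 RPKM in wild-type ES3 cells and 0.0724 RPKM in the knockout, and at 1.79 RPKM in wild-type MEFs and 1.27 RPKM in the knockout. Hoxd8 was at 0.126 RPKM in wild-type ES3 cells and 0.313 RPKM in the knockout, and at 6.64 RPKM in wild-type MEFs and 8.45 RPKM in the knockout, the highest of its cluster in both MEF libraries.

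Among posterior genes, Hoxb9, which patterns the thoracic ribs, was nearly level in MEFs at 32.9 RPKM in wild-type MEFs and 32.9 RPKM in the knockout. In ES3 cells Hoxb9 was at 0.318 and 1.77 RPKM in wild type and knockout. Hoxc9, a thoracic motor neuron gene, was at 0.0448 RPKM in wild-type ES3 cells and 0.216 RPKM in the knockout, and at 7.04 RPKM in wild-type MEFs and 9.69 RPKM in the knockout. Hoxc10, a lumbar and hindlimb gene, was at 0 RPKM in wild-type ES3 cells and 0.313 RPKM in the knockout, and at 12.5 RPKM in wild-type MEFs and 14.2 RPKM in the knockout. Hoxb9, Hoxc9 and Hoxc10 were thus among the higher MEF members. Hoxa9, a gene of blood progenitors, was listed at 0 in both ES3 libraries and stood at 1.62 RPKM in wild-type MEFs and 1.31 RPKM in the knockout. Hoxa10, needed in the uterus, was at 0.0317 RPKM in wild-type ES3 cells and 0.259 RPKM in the knockout, and at 2.70 RPKM in wild-type MEFs and 3.17 RPKM in the knockout. The 2 tables keep different Hoxa10 transcripts by the rule, so these 2 pairs of values are of different transcripts. Hoxa11, which with Hoxd11 forms the forearm, was at 0 RPKM in wild-type ES3 cells and 0.456 RPKM in the knockout, and at 2.44 RPKM in wild-type MEFs and 2.82 RPKM in the knockout. Hoxa11 lies beside the antisense gene Hoxa11as, and the sources used here do not give the strandedness of the libraries, so reads of the pair cannot be told apart.

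Hoxd9 was at 0.0119 RPKM in wild-type ES3 cells and 0.511 RPKM in the knockout, and at 2.61 RPKM in wild-type MEFs and 4.75 RPKM in the knockout. Hoxd11 was at 0.262 RPKM in wild-type ES3 cells and 0.235 RPKM in the knockout, and at 1.14 RPKM in wild-type MEFs and 1.60 RPKM in the knockout, and its span overlaps that of Hoxd10. Hoxd13, the digit gene, was at 0.248 RPKM in wild-type ES3 cells and 1.10 RPKM in the knockout, and at 3.68 RPKM in wild-type MEFs and 2.29 RPKM in the knockout. Hoxc13, which controls hair and nail keratins, was at 0.760 RPKM in wild-type ES3 cells and 3.44 RPKM in the knockout, and at 0.716 RPKM in wild-type MEFs and 1.51 RPKM in the knockout. In both cell types the Hoxc13 value was higher in the knockout, and Hoxd13 was higher in knockout ES3 cells and lower in knockout MEFs. The other 8 members, Hoxa2, Hoxa13, Hoxb1, Hoxb13, Hoxc12, Hoxd1, Hoxd10 and Hoxd12, were under 1 RPKM in all 4 libraries. Hoxd10 was the highest of them in MEFs, at 0.946 RPKM in wild-type MEFs and 0.904 RPKM in the knockout. Hoxb13, known from the prostate, was the highest of them in ES3 cells, at 0.528 RPKM in wild-type ES3 cells and 0.768 RPKM in the knockout.

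In knockout ES3 cells 4 of the 37 members were at 1 RPKM or more (10.8%, against 65.7% of all genes), 30 were under 0.5 RPKM and 6 were listed at 0. The summed level was 14.4 RPKM and the highest single value 3.44 RPKM, for Hoxc13. The differences were expressed as log2((knockout + 1)/(wild type + 1)), which understates the change of low genes, and a gene was measured where either library reached 1 RPKM. The 4 measured members were each under 1 RPKM in wild type and passed only through the knockout, so their direction was fixed by the filter. The log2 ratio was 1.34 for Hoxc13, 1.07 for Hoxb9 and 0.75 for Hoxd13. Hoxc13 and Hoxb9 were past 2-fold, 2 members higher and 0 lower, where 12.5% of all 12023 measured genes were at least 2-fold higher and 3.18% at least 2-fold lower. With ratios centred on genes of the same span, Hoxb9 had 0.97 and Hoxc13 alone was past 2-fold, at 1.33, where 10.7% of all genes were that much higher.

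Over all levels, 25 members had a higher value in the knockout ES3 library, 8 a lower one, and 4 were at 0 in both. Of the 29 members under 1 RPKM in both libraries and above 0 in at least 1, 21 were higher in the knockout (72.4%). The same share over all 4990 such genes was 66.5%, so the members lay near the level of other barely detected genes. Markers of other cell types moved with the knockout in the same pair of libraries, and their part in the Hox values was not tested. All 8 primitive endoderm markers were at least 2-fold higher, with a summed level of 28.5 RPKM in wild type and 1071 RPKM in knockout. Of 4 mesoderm markers 2 were measured, T and Hand1, both at least 2-fold higher, with 0.376 and 6.15 RPKM for T and 0.406 and 7.69 RPKM for Hand1. Of 8 embryonic stem cell markers 5 were at least 2-fold lower, with sums of 2081 and 1060 RPKM. Fibroblast markers summed to 231 and 470 RPKM, with 4 of the 7 measured at least 2-fold higher. Of the endothelial markers 2 of 4 measured were at least 2-fold higher, of the neural markers 1 was higher and 1 lower, and of the leukocyte markers 1 was lower. T, Hand1, Gata4, Gata6, Sox17, Foxa2 and Dab2 were under 1 RPKM in wild type and passed the filter through the knockout alone. So did Col1a1, Col3a1 and Pdgfra of the fibroblast markers and Cdh5, Tie1 and Kdr of the endothelial ones. For all of these the filter fixed the direction. In bulk RNA, few cells with a high Hox level and many cells with a low one cannot be told apart.

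**Figure D2:**
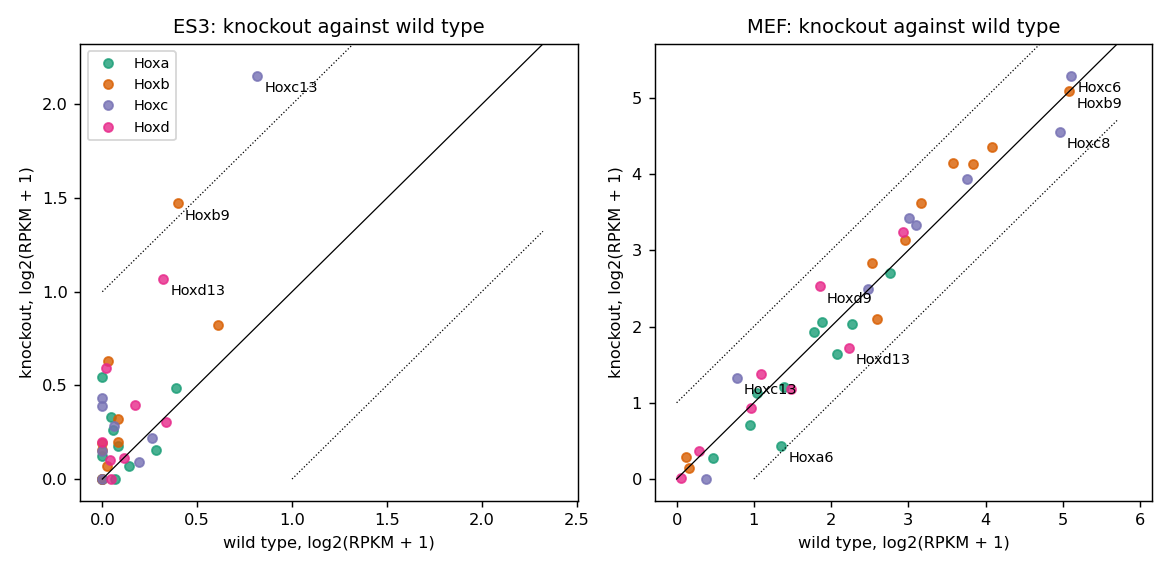
Knockout level against wild-type level of the Hox genes, log2(RPKM + 1), in ES3 cells and MEFs, with 1 member not drawn; 1 point is 1 gene, the solid line marks equal levels and the dotted lines 2-fold. In ES3 cells Hoxc13 and Hoxb9 lie past the upper dotted line (Hoxc13 alone after span centring), and in MEFs the points lie between the dotted lines (Hoxa6 is past 2-fold after span centring).

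In MEFs the Hox levels of wild type and knockout lay in nearly the same order. In the knockout 28 members were at 1 RPKM or more (75.7%, against 57.4% of all genes), 27 of them in both libraries, and the summed level was 255 RPKM. The order of the members' levels in wild type and knockout had a Spearman rho of 0.974 over the 37 genes, given as a description of 1 pair of libraries that share the gene lengths. Of the 29 measured members 0 were at least 2-fold higher and 0 at least 2-fold lower, where 0.981% and 4.84% of all 10805 measured genes were. The members' median log2 ratio was 0.17, with 20 above 0 and 9 below, against 0.00 over all measured genes, but it turned to -0.25 with 6 above and 23 below once ratios were centred on genes of the same span. The largest positive log2 ratios were 0.67 for Hoxd9, 0.57 for Hoxb6 and 0.55 for Hoxc13, which had passed the filter through the knockout alone. Span centring left 0.25, 0.14 and 0.26. The lowest were -0.92 for Hoxa6, which passed through the wild type alone, -0.51 for Hoxd13, -0.49 for Hoxb3, -0.43 for Hoxa3 and -0.41 for Hoxc8. Of the 10 fibroblast markers 2, Postn and Fn1, were at least 2-fold lower in the same pair of libraries, and their part in the Hox values was not tested. After span centring Hoxa6 was at -1.26, the 1 member past 2-fold, where 2.65% of all genes were that much lower and 0.805% that much higher. Hoxd13 was then at -0.93 and Hoxc8 at -0.83.

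Span moved with these ratios. Over all measured genes in MEFs the Spearman rho of log2 ratio and gene span was -0.543, short genes having the higher ratios, and over the 29 members it was -0.215. The members are short, with a median span of 3422 bp beside 21957 bp for all measured genes. The 16 members under 5 kb had a median log2 ratio of 0.18 with 13 above 0, from -0.51 to 0.67. The 10 members of 5 to 10 kb had a median of 0.09 with 6 above 0. The 3 members of 10 kb or more, Hoxa3, Hoxb3 and Hoxd11, had a median of -0.43 with 1 above 0. The span is that of the gene in the table, which for Hoxa3 and Hoxb3 is far longer than the mature transcript.

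**Figure D3:**
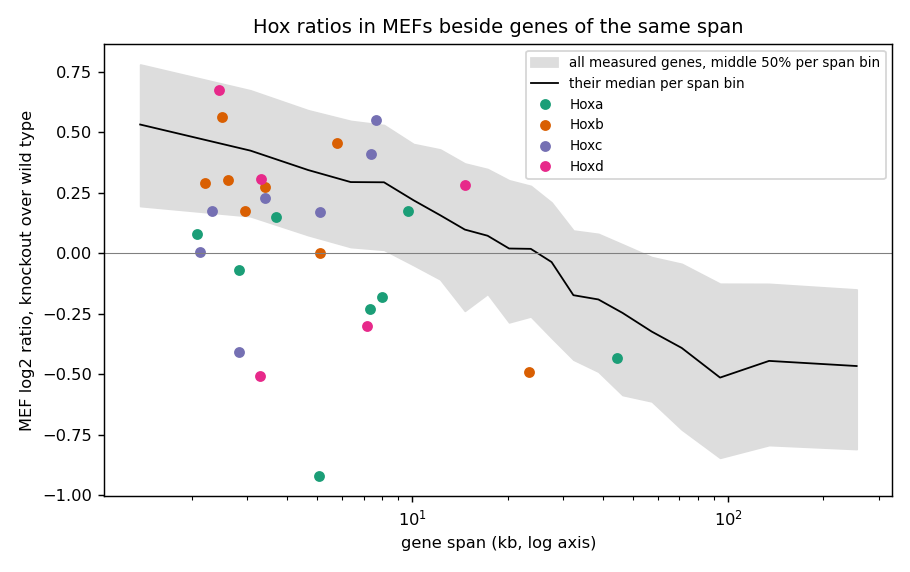
MEF log2 ratio of knockout over wild type against gene span (kb, log axis) for the measured Hox genes (1 not drawn), over the median (line) and the middle 50% (grey) of all measured genes in bins of span. Most Hox points lie above 0 but below the line for genes of their span, which is why the members' median of 0.17 becomes -0.25 after span centring.

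The H3K9me3 region lists of ES3 cells (mm9 coordinates, no score, 1 list per condition) placed 3 wild-type and 14 knockout regions in the clusters. A cluster here runs from the lowest to the highest gene coordinate: Hoxb chr11:96055630-96229570, Hoxc chr15:102751562-102867272 and Hoxd chr2:74506367-74603200. Hoxa was bounded in the same way, and the 4 clusters came to 491.918 kb. The wild-type list held 3 regions there, all within the span of Hoxb3 (chr11:96188588-96189307, chr11:96189753-96191395 and chr11:96199885-96200324). All 3 stood also in the authors' list of wild-type-only regions. Of the 3, 0 overlapped a knockout region, where 48.5% of all 37002 wild-type regions did. The list membership and the lack of overlap are not separate results. Hoxa, Hoxc and Hoxd held none, and each is short enough that a count of 0 lies near the background of its chromosome. The density over the 4 clusters was 6.10 regions per Mb, beside 10.9 over the 4 chromosomes. In Hoxb alone it was 17.2 per Mb, beside 9.50 on chromosome 11, and rests on the 3 regions in Hoxb3.

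The knockout list held 14 regions in the clusters, 4 in Hoxa, 6 in Hoxb, 4 in Hoxc and 0 in Hoxd. None of the 14 overlapped a wild-type region by 1 bp or more, where 49.3% of all 37221 knockout regions did. Hoxa and Hoxc held no wild-type region to overlap and Hoxb only those in Hoxb3. The lack of overlap thus largely restates the low wild-type count. In Hoxb3, however, the knockout region chr11:96191409-96192210 began just past the end of the wild-type region chr11:96189753-96191395, so that pair nearly abutted. The 14 regions measured 389 to 1446 bp with a median of 556 bp, beside a median of 587 bp for all knockout regions, and 8 of them lay in the span of a Hox gene. One of them, chr11:96227589-96228460, lay 523 bp downstream of the start of Hoxb1. A pair lay within Hoxa10, at chr6:52186314-52186882 and chr6:52187557-52188191, and the longest lay upstream of Hoxa11, at chr6:52200466-52201911. In Hoxc, chr15:102763334-102764564 lay 2624 bp upstream of Hoxc12 and chr15:102768680-102769201 overlapped the end of that gene. The other regions of Hoxc lay 6459 bp upstream of Hoxc10 and 3537 bp upstream of Hoxc9. The other regions of Hoxb lay within Hoxb7, within Hoxb3 (a pair), 1565 bp upstream of Hoxb6 and 27192 bp upstream of Hoxb9.

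Over the 4 clusters the knockout density was 28.5 regions per Mb, beside 14.2 over their chromosomes. By cluster it was 37.9 per Mb in Hoxa beside 26.1 on chromosome 6, 34.5 in Hoxb beside 9.60 on chromosome 11, and 34.6 in Hoxc beside 10.1 on chromosome 15. Hoxa and Hoxc each rest on 4 regions, and Hoxa lies nearer to its chromosome than Hoxb and Hoxc. Hoxd held 0 beside 9.84 on chromosome 2. At that density a cluster of 96.8 kb would hold less than 1 region, so the 0 is near the background. Chromosome 6 held 3901 knockout regions against 1864 in wild type (26.1 and 12.5 per Mb), and chromosome 14 differed in the same way (25.5 and 12.6 per Mb). The median over the 19 chromosomes other than 6 was 11.0 per Mb in the knockout and 12.5 in wild type. Without Hoxa and its chromosome, 10 knockout regions remained in the 3 other clusters, 25.9 per Mb beside 9.84. The regions covered 2.01% of the clusters in the knockout and 0.570% in wild type, beside 1.13% and 1.15% of the chromosomes. The files used here give 1 list per condition with no input signal and no score, so the strength of these regions was not tested.

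**Figure D4:**
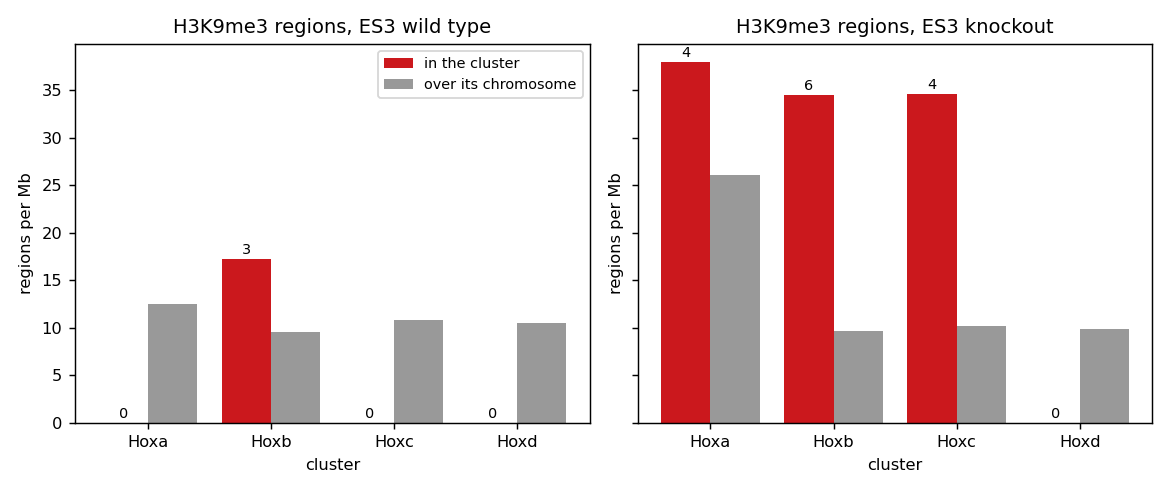
H3K9me3 regions per Mb in each Hox cluster (red) and over the whole chromosome that carries it (grey), for the wild-type and knockout lists of ES3 cells; numbers over the red bars are the regions counted. In the knockout Hoxa, Hoxb and Hoxc lie above their chromosomes and Hoxd holds 0, and in wild type only Hoxb holds any. The clusters are short, so a count of 0 in a single cluster is near the background.

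**Figure D5:**
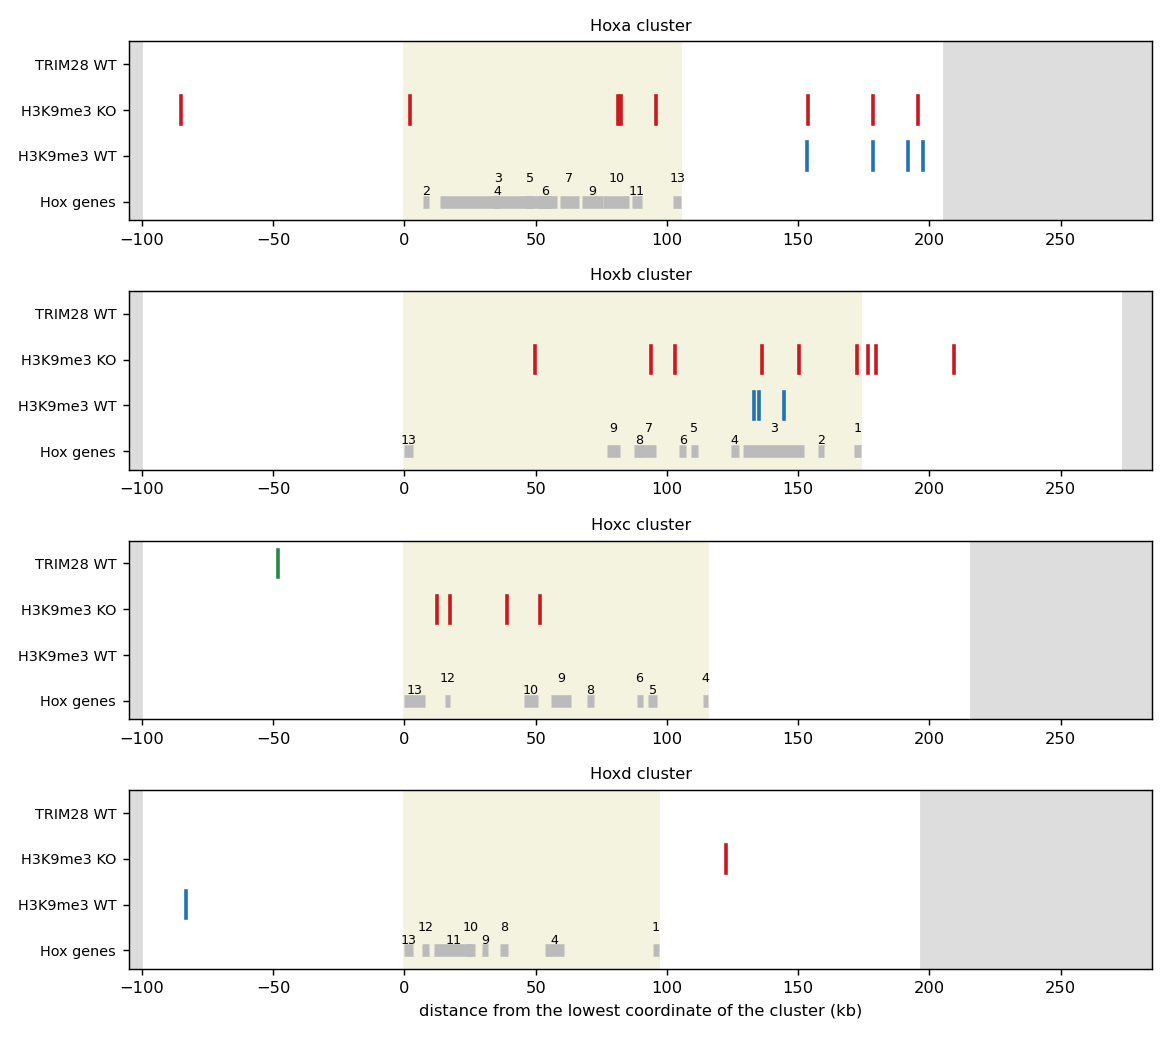
Map of the 4 Hox clusters with 100 kb on each side, in kb from the lowest coordinate of the cluster (shaded): gene spans as bars with their paralog number (1 member not drawn), H3K9me3 regions of wild type (blue) and knockout (red), and TRIM28 peaks of wild type over input (green); nothing is drawn in the grey margins. The blue marks inside a cluster are the 3 of Hoxb3, the red ones number 14, and the 1 green mark lies outside Hoxc.

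By gene, 21 of the 37 starts lay within 20 kb of a knockout region (56.8%, against 24.3% of all genes) and 8 within 5 kb (21.6%, against 8.44%). Members of a cluster share regions, so these starts are not independent. Those within 5 kb included Hoxa10, Hoxa11, Hoxb1, Hoxb6, Hoxb7, Hoxc9 and Hoxc12. Those between 5 and 20 kb were Hoxa2, Hoxa7, Hoxa9, Hoxa13, Hoxb2, Hoxb3, Hoxb4, Hoxb5, Hoxb8, Hoxb9, Hoxc8, Hoxc10 and Hoxc13. Near a wild-type region within 20 kb were 3 starts, of Hoxb3, Hoxb2 and Hoxb4 (8.11%, against 24.4% of all genes), and within 5 kb that of Hoxb3 (2.70%, against 7.36%).

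TRIM28 itself had 0 peaks in the clusters in each of 3 peak lists (wild type over input with 3099 peaks, wild type over knockout with 2382, and knockout over input with 1898). The 4 chromosomes carried 1.09, 0.780 and 0.800 of these peaks per Mb, so a stretch of 491.918 kb would hold less than 1 peak at those densities, and a count of 0 is near the background. None of the 37 starts lay within 20 kb of a wild-type peak over input, where 6.94% of all genes did. The nearest was chr15:102703164-102703547, 48.0 kb upstream of the Hoxc13 start, with a peak score by the authors of 51.27 over input and 62.27 over knockout, beside a lowest score of 50.01 in both lists. The median distance from a start to such a peak was 712 kb in Hoxa, 1342 kb in Hoxb, 408 kb in Hoxd and 111 kb in Hoxc, beside 212 kb for all genes, so Hoxc lay nearer than the median gene and the other clusters farther. The starts of a cluster share their nearest peaks and are not independent. For peaks of the knockout over input the members' median was 186 kb, beside 312 kb for all genes. By cluster it was 168 kb in Hoxa, 208 kb in Hoxb and 149 kb in Hoxd, but 1459 kb in Hoxc. A knockout peak lay 80.8 kb downstream of the Hoxd1 start.

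Genes beside the clusters were followed too. Of 9 within 100 kb, 5 were measured in ES3 cells, where 2 were at least 2-fold higher and 0 lower, beside 12.5% and 3.18% of all measured genes. Calcoco2, which encodes an autophagy receptor in human cells and lies beyond Hoxb13, was at 5.21 RPKM in wild-type ES3 cells and 14.2 RPKM in the knockout, a log2 ratio of 1.29. Mir196a-1, the microRNA gene between Hoxb9 and Hoxb13, was at 0.755 RPKM in wild-type ES3 cells and 4.02 RPKM in the knockout, and its log2 ratio was 1.52, measured through the knockout alone. In MEFs it was at 11.5 and 6.70 RPKM in wild type and knockout, a log2 ratio of -0.70 that was -1.24 after span centring. RPKM over so short a hairpin gene is not the level of the mature microRNA. Its product targets Hox transcripts, Hoxb8 being the classic case, and shares its seed with miR-196b of the Hoxa cluster. The mature sequences, from RefSeq on GRCm38.p6, have the seed (bases 2 to 8) in capitals.
miR-196a-5p, chr11:96265187-96265208, plus strand: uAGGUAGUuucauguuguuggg
miR-196b-5p, chr6:52230129-52230150, minus strand: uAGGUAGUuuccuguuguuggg
Hoxa11as, antisense to Hoxa11, had a listed value of 0 in wild-type ES3 cells and 0.618 RPKM in the knockout, and was at 2.12 RPKM in wild-type MEFs and 2.60 RPKM in the knockout. Hoxa11 had the same order in each pair of libraries.

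The partners and regulators of Hox genes were described from lists, with all measured genes at a median log2 ratio of 0.08 in ES3 cells and 0.00 in MEFs. The counts past 2-fold below stand beside 12.5% of all measured genes higher and 3.18% lower in ES3 cells, and 0.981% higher and 4.84% lower in MEFs, and each list is too small for its counts to be read closely against those shares. Of 9 cofactors of the Pbx, Meis and Pknox families, which bind DNA beside Hox proteins, 8 were measured in ES3 cells, 2 were at least 2-fold higher and 0 lower, with a median of 0.20 that was 0.01 after span centring. Meis1 was at 0.337 RPKM in wild-type ES3 cells and 3.03 RPKM in the knockout, a log2 ratio of 1.59. Pbx3 was at 0.598 RPKM in wild-type ES3 cells and 2.26 RPKM in the knockout, a log2 ratio of 1.03 that was 0.80 after span centring. Both were under 1 RPKM in wild type and passed the filter through the knockout, which fixed their direction. In MEFs 7 were measured, 0 passed 2-fold and the median was -0.21 (0.03 after span centring).

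The list of upstream regulators held 16 genes: Cdx factors, the retinoic acid pathway with its degrading enzymes, and Gdf11. Of these 12 were measured in ES3 cells, with 2 at least 2-fold higher, 3 lower and a median of 0.20. Cyp26a1, the retinoic acid degrading enzyme and a target of retinoic acid, was at 0.216 RPKM in wild-type ES3 cells and 2.53 RPKM in the knockout, a log2 ratio of 1.54. Cdx2 was at 0.273 RPKM in wild-type ES3 cells and 1.59 RPKM in the knockout, a log2 ratio of 1.03. The lower ones were Crabp1, a retinoic acid binding protein gene at -1.32, and the receptor genes Rara at -1.20 and Rarg at -1.19. The list thus held genes on both sides, and the higher ones passed the filter through the knockout alone. In MEFs 10 were measured, 0 passed 2-fold and the median was -0.09 (0.15 after span centring).

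Of 27 Polycomb and trithorax genes, whose products hold Hox clusters silent or active, 26 were measured in ES3 cells, with 3 at least 2-fold higher, 3 lower and a median of -0.28. Of all measured genes 12.5% were that much higher and 3.18% that much lower. Counts of 3 in 26 are too small to be read closely against either share. Jarid2, a partner of Polycomb repressive complex 2 (PRC2) in embryonic stem cells, was at 132 RPKM in wild-type ES3 cells and 45.4 RPKM in the knockout, a log2 ratio of -1.52. Suz12, a PRC2 core subunit, had -1.10 and Phf19, a PRC2 accessory subunit, -1.14. The other PRC2 core genes were under 2-fold, Eed at -0.84 and Ezh2 at -0.47. The higher ones, Phc2 at 1.37, Cbx8 at 1.35 and Bmi1 at 1.32, encode subunits of the other Polycomb complex, PRC1. Cbx8, at 0.273 RPKM in wild-type ES3 cells, and Bmi1, at 0.921 RPKM there, passed the filter through the knockout alone, which fixed their direction. Other PRC1 genes had lower values in the knockout, with Phc1 at -0.99, Cbx7 at -0.94, Pcgf2 at -0.93, Cbx6 at -0.78 and Rnf2 at -0.28. Phc1 and Cbx7 were past 2-fold lower after span centring, at -1.07 and -1.05, where 3.93% of all measured genes were. The PRC1 genes thus lay on both sides. In MEFs 26 were measured, 3 were lower and 0 higher, and the median was -0.28. The lower ones were Mll1 at -1.23, Kdm6a at -1.13 and Suz12 at -1.12, and all 3 were under 2-fold after span centring at -0.84, -0.68 and -0.92. Bmi1 was at -0.87 and past 2-fold only after span centring, at -1.09.

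Of 20 positional and limb factors outside the clusters, 5 were measured in ES3 cells and 2 were at least 2-fold higher, with 0 lower and a median of 0.93. Msx2, a homeobox gene of the limb ridge, was at 0.202 RPKM in wild-type ES3 cells and 3.91 RPKM in the knockout, a log2 ratio of 2.03. Tbx4, a hindlimb gene, was at 0.337 RPKM in wild-type ES3 cells and 2.12 RPKM in the knockout, a log2 ratio of 1.22. Msx2, Tbx4, Tbx15 and Prrx2 were measured through the knockout alone, so for 4 of the 5 the filter fixed the direction, and the absence of lower genes and the positive median say nothing further. The fifth, Twist1, was at 1.13 RPKM in wild-type ES3 cells and 2.79 RPKM in the knockout, a log2 ratio of 0.83. In MEFs 15 of the 20 were measured, 0 passed 2-fold and the median was -0.29. Tbx5, a forelimb gene, was at 2.80 RPKM in wild-type MEFs and 2.00 RPKM in the knockout, and Tbx4 at 0.346 RPKM in wild-type MEFs and 0.372 RPKM in the knockout. Pitx1, also a hindlimb gene, was at 0.737 RPKM in wild-type MEFs and 1.28 RPKM in the knockout, measured through the knockout alone. Twist1 and Prrx1 stand in this list and among the fibroblast markers.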

How the data were processed

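RNA levels were deposited by the authors as RPKM, 1 column each for wild type and knockout, in separate tables for ES cells and MEFs. The ratio column the authors deposited is knockout over wild-type RPKM. The ES columns name only WT and KO and were read as the ES3 pair. Reads were handled with Bowtie on mm9, per the submitters' processing notes; the sources used here give no version, read counter or RPKM denominator. Read depth is unknown, so no counting interval is given. H3K9me3 lists, per the labels from ES3 cells, hold start and end only, and the TRIM28 lists hold peak names in the style of MACS and a score the authors deposited whose scale is not stated.

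Computed here (Python 3.11.15, pandas 2.3.3, numpy 2.4.6): log2((knockout + 1)/(wild type + 1)) with a pseudocount of 1 RPKM, for genes that reached 1 RPKM in at least 1 library, called at 2-fold. Span-centred ratios subtract the median of measured genes in 20 bins of gene span. Gene coordinates are those of the tables, and a start is the gene's outer coordinate there. Each group was 1 library, so no test was made. The ratio step was tested on simulated data. Members at 1 RPKM or more in any library are named with all values, except 1 that is counted but not reported here, and from each list those past 2-fold. Members and lists were chosen with earlier results of these data known. The 5 kb window, the chromosome densities, the span classes and the promoter windows, motifs and sequences shown were chosen after the values were seen. RefSeq promoter and microRNA sequences are on GRCm38.p6, and no coordinates were converted from mm9.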

Additional observations from a re-analysis of the deposited data

How the results depend on the processing

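No paired analysis was possible because each group was 1 library. Of 77 alternative values, 54 stayed close to the reported one. Some of these had little room to move. The measured ES3 members passed the filter through the knockout alone, so their count of lower genes stayed at 0. Keeping the transcript with the lowest mean touched only Hoxa10 and Hoxb3. The MEF median log2 ratio of 0.17 turned to -0.25 under span centring, and 1 MEF member was then at least 2-fold lower, as was 1 with a pseudocount of 0.1 RPKM. The ES3 median of 0.91 was 1.91 with a pseudocount of 0.1, 0.29 with 5 and 0.15 with no filter. The ES3 count of 2 members at least 2-fold higher was 4 with a pseudocount of 0.1, 0 with 5, 0 with a filter at 5 RPKM (which left no member and no median), 1 with median centring, 1 with span centring and 0 at 3-fold. At 0.5 RPKM, 3 members counted as expressed in wild-type and 7 in knockout ES3 cells. At 5 RPKM, 0 did in knockout ES3 cells and 14 in each MEF library. With 100 kb added on each side, the clusters held 8 wild-type, 22 knockout and 5 wild-type-only H3K9me3 regions, and 1 peak of each TRIM28 list. Leaving out chromosome 6, chosen after seeing the data, left 3 wild-type and 10 knockout regions. With 1 library per group and unknown depth, values under 1 RPKM may rest on very few reads.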
